A study of Homo sapiens with 6 samples.

Results

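Transcripts of 9 laminin chain genes were measured in HK-2 cells. HK-2 is an established human line that was made from proximal tubule cells of the kidney. The chains were taken by gene symbol from a table of 34157 genes: the alpha chain genes LAMA1, LAMA2, LAMA3, LAMA4 and LAMA5, the beta chain genes LAMB1, LAMB2 and LAMB3, and the gamma chain gene LAMC1. The RNA came from HK-2 cells that had received GDF5, a secreted ligand of the BMP family, for 48 hours at 100 ng/ml (3 libraries) and from wild-type HK-2 control cells (3 libraries), and the labels name no other agent or allele. Other laminin chain genes were not analysed here. HK-2 is 1 line. The labels do not state whether replicates are separate cultures, so the spread behind each p-value may be technical.

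Laminins are large secreted proteins of basement membranes, each built from 1 alpha, 1 beta and 1 gamma chain wound into a coiled coil. The beta and gamma chains pair first inside the cell, and an alpha chain must join them before the trimer is secreted. The far end of the alpha chain binds integrins and dystroglycan on the cell surface, and the short arms, in chains that have them whole, link laminins into a sheet. In the kidney tubule the alpha5 chain with beta1 and gamma1 is the usual adult laminin, alpha1 is made early in development and in parts of the adult tubule, and the laminin that holds alpha3 and beta3 anchors stratified epithelia such as the epidermis.

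Recovered reads came to 43883484 to 56038602 in GDF5 libraries and 45101775 to 56018250 in control libraries. Mitochondrial genes took 10.1% to 10.3% of reads in GDF5 libraries and 7.92% to 8.71% in control libraries, and these reads are part of the totals behind each RPKM (reads per kilobase of exon, scaled to the library's total of mapped reads) value. Of the proximal tubule markers LRP2, CUBN, SLC34A1, SLC5A2, AQP1 and HNF4A each averaged under 1 RPKM in both groups. PAX8 (27.3 RPKM in GDF5, 36.9 RPKM in control) and GGT1 (1.78 and 2.30 RPKM) were above it, so only 2 of 8 markers reached that level. The 8 proximal tubule markers used summed to 28.2 to 30.5 RPKM in GDF5 and 36.1 to 42.8 RPKM in control libraries, nearly all of it PAX8. All 5 epithelial markers listed (KRT8, KRT18, KRT19, EPCAM and CDH1) averaged at least 1 RPKM over the 6 libraries, with sums of 283 to 308 RPKM in GDF5 and 334 to 352 RPKM in control libraries. Taken by group, CDH1 averaged 0.834 RPKM in GDF5, under that level, and 1.62 RPKM in control libraries. Summed markers of endothelium lay at 0.0576 to 0.108 RPKM in GDF5 and 0.0555 to 0.101 RPKM in control libraries. Leukocyte markers summed to 0.0211 to 0.0662 RPKM in GDF5 and 0 to 0.145 RPKM in control libraries. Of 6 fibroblast and mural markers 2, LUM and DCN, were at least 1 RPKM, and the sum lay at 71.5 to 76.1 RPKM in GDF5 and 74.5 to 80.9 RPKM in control libraries, nearly all of it LUM, while COL3A1, PDGFRA and PDGFRB were under 0.1 RPKM on average. The part of these markers in the results below was not tested.

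In GDF5 cells LAMA5 and LAMB3 fell most among the laminin chains. LAMA5 averaged 39.9% lower and LAMB3 36.5% lower, LAMB1 was 15.9% lower, and LAMB2, 12.7% lower, passed only narrowly. LAMA1, LAMA3 and LAMC1 were not called, and LAMA2 and LAMA4 lay below the tested level of 1 RPKM on average. limma called no tested chain higher, and none had an unadjusted p under 0.05 in that direction. Every tested chain had a log2 change below 0 in that fit. Log2 changes by limma, here and below, are those of RPKM + 1 unless another setting is named. That scale understates the fold of low genes. limma-voom on recovered reads also called 0 higher. Its 95% interval for LAMC1 lay just above 0, at 4.4e-04 to 0.12 (log2 change 0.062, limma-voom adjusted p = 0.158). In all, 4 of 7 tested chains were lower in GDF5 by limma at an adjusted p under 0.05, where the whole table had 25.0% of 12476 tested genes called, 17.5% of them as lower and 7.48% as higher. The groups did not overlap for the same 4 chains, and for 43.9% of all tested genes, 30.4% with GDF5 below control and 13.5% with GDF5 above. The median log2 change of the 7 chains was -0.19, and that of all tested genes was -0.050. With median-of-ratios scaling, which centres the libraries on the typical gene, 3 chains were lower, against 22.8% of genes called, 9.96% as lower and 12.9% as higher, and the median of all genes was 0.0021. With limma-voom on recovered reads 3 chains were lower, against 19.7% of 19065 genes called, 8.88% as lower and 10.8% as higher. The authors' deposited table called LAMA5, LAMB3 and LAMB1, against 8.73% of its 34156 genes called, 3.82% as lower. That set was not filtered by level, so its shares cannot be set beside those of the 12476 tested genes. Fewer cells making a transcript and less transcript per cell cannot be told apart in these bulk libraries.

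**Figure D1:**
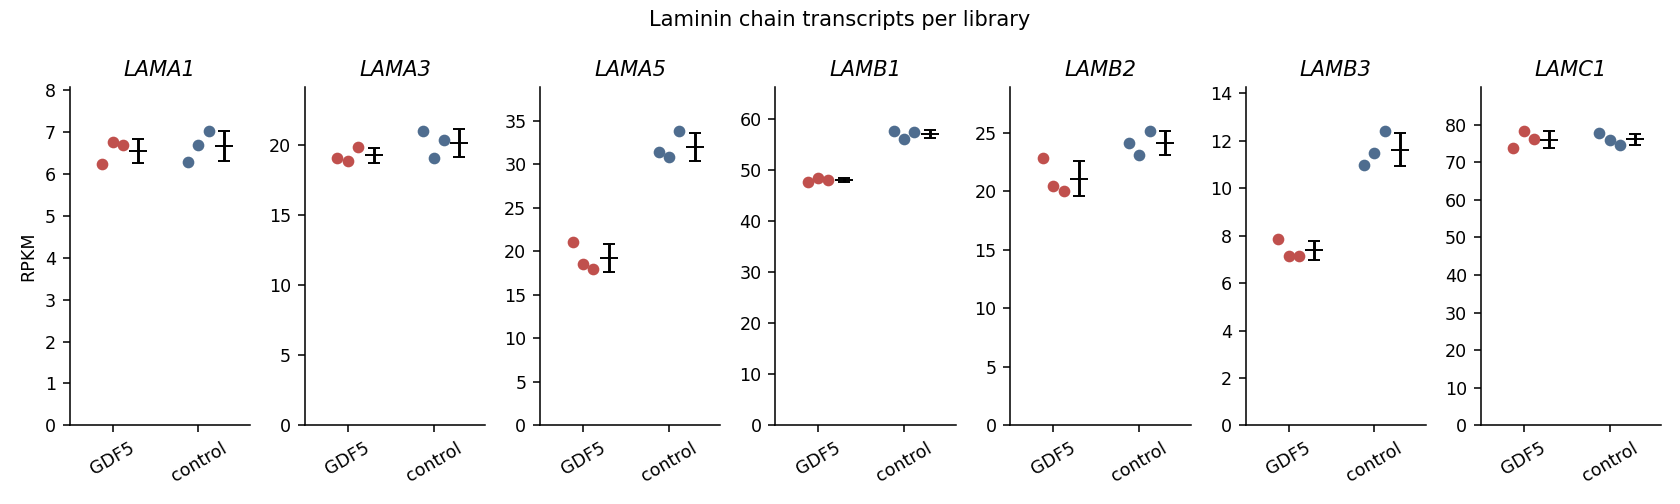
RPKM of the 7 tested laminin chains in each library, with GDF5 (red) left of control (blue) on linear axes that start at 0. Points are libraries in the order of replicates 1 to 3, and bars are the mean and SD of 3 libraries. The groups are apart for LAMA5, LAMB1, LAMB2 and LAMB3 and overlap for LAMA1, LAMA3 and LAMC1.

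Among the alpha chains, the strongest change was in LAMA5 (ENSG00000130702, GRCh38 chromosome 20, 62307955 to 62367312, minus strand), whose product is the most widely made alpha chain of adult basement membranes. LAMA5 was at 21.1, 18.6 and 18.0 RPKM in GDF5 replicates 1 to 3, against 31.4, 30.8 and 33.8 RPKM in control replicates 1 to 3. The highest GDF5 library thus lay well under the lowest control library. The means were 19.2 ± 1.61 RPKM in GDF5 and 32.0 ± 1.59 RPKM in control (SD, n = 3 each). On log2(RPKM + 1) the change was -0.71 (standard error 0.062, 95% interval -0.85 to -0.56, limma adjusted p = 4.83e-04). Between 11677 and 27072 reads per library stood behind these values. The change lay between -0.77 and -0.57 over 14 other settings and stayed called in each. In the authors' deposited table LAMA5 had a log2 fold change of -0.67 and an adjusted p of 1.43e-37. Its exons share 244 bases with those of ADRM1 on the other strand, a proteasome receptor gene with 2175 to 3313 reads per library, and the labels leave unsaid whether reads were counted by strand. The antisense gene LAMA5-AS1 had 0 to 11 reads per library.

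LAMA3 (ENSG00000053747, chromosome 18, 23689443 to 23956222, plus strand) encodes the alpha chain that laminins of the epidermal anchoring kind share with beta3. It was at 19.1, 18.9 and 19.9 RPKM in GDF5 libraries, against 21.0, 19.1 and 20.4 RPKM in control libraries. The groups overlapped. The log2 change was -0.058 (95% interval -0.16 to 0.041, limma adjusted p = 0.347), so a fall of the size of that in LAMA5 lies outside the interval. The LAMA3 gene makes a long and a short form from separate start sites, and a value per gene does not separate them.

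The promoter windows of LAMA5 and LAMA3, 250 bases before to 50 after a RefSeq start site on GRCh38.p14, are shown because LAMA5 changed most and LAMA3 is the other abundant alpha chain. Capitals mark matches to the motifs described further on. The LAMA3 start site in the table lies inside the gene, downstream of the first annotated start. LAMA5 is chr20:62367263-62367562 on the minus strand, and LAMA3 is chr18:23872770-23873069 on the plus strand.
LAMA5: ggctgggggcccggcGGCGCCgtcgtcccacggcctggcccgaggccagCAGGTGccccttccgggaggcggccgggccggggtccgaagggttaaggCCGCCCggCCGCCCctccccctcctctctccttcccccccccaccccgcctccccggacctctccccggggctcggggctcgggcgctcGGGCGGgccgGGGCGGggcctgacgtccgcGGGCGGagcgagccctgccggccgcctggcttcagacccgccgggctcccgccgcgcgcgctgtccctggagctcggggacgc
LAMA3: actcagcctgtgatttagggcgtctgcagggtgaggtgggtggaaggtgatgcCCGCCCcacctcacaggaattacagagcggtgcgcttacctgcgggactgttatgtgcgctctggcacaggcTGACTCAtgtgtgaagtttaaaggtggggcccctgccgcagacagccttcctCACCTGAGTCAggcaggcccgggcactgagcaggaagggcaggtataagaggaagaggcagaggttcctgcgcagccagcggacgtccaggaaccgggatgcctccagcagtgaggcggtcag

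LAMA1 (ENSG00000101680, chromosome 18, 6941744 to 7117814, minus strand), the alpha chain of the earliest embryonic basement membranes, was at 6.23, 6.76 and 6.69 RPKM in GDF5 libraries, against 6.30, 6.70 and 7.02 RPKM in control libraries. These values overlapped throughout. The log2 change was -0.021 (95% interval -0.14 to 0.093, limma adjusted p = 0.780) and turned to 0.034 with median-of-ratios scaling, uncalled in both. LAMA2 (ENSG00000196569, chromosome 6, 128883141 to 129516569, plus strand), the alpha chain of muscle and peripheral nerve, was at 0.236, 0.319 and 0.322 RPKM in GDF5 libraries, against 0.159, 0.287 and 0.260 RPKM in control libraries. That is 137, 145 and 181 reads in GDF5 and 79, 134 and 151 reads in control libraries, and the groups overlapped. With limma-voom on recovered reads LAMA2 changed by 0.39 on the log2 scale (standard error 0.21, adjusted p = 0.213). LAMA4 (ENSG00000112769, chromosome 6, 112108760 to 112254939, minus strand), a truncated alpha chain of vessel walls and mesenchyme, was close to absent. It had 4, 2 and 6 reads in GDF5 libraries and 0, 6 and 3 reads in control libraries. The 0 reads of control replicate 1 allow up to 3 reads, or 0.00522 RPKM, for counting error only, and no fold is given at this depth.

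Because each library is its own reference for a share, the makeup of the alpha class does not depend on how libraries were scaled. LAMA5 made up 45.2%, 41.7% and 40.1% of summed alpha chain RPKM in GDF5 libraries, against 53.3%, 54.2% and 55.0% in control libraries. Its share averaged 42.3 ± 2.58% in GDF5 and 54.2 ± 0.820% in control libraries, a difference of -11.8 points. The LAMA3 share averaged 42.6 ± 1.64% in GDF5 and 34.1 ± 1.36% in control libraries (SD, n = 3 each), a difference of 8.42 points, and neither share overlapped between the groups. LAMA5 was thus the leading alpha chain in all 3 control libraries, at 1.49 to 1.66 times the LAMA3 level, whereas in GDF5 libraries that ratio was 1.10, 0.983 and 0.906. LAMA1 averaged 14.5 ± 0.979% in GDF5 and 11.3 ± 0.541% in control libraries. The share of LAMA1 was higher in every GDF5 library although its own level overlapped between the groups, as the summed alpha RPKM was 45.4 ± 1.09 in GDF5 and 59.1 ± 2.33 in control libraries. The exact permutation test, two-sided, gave p = 0.1 for the LAMA1, LAMA2, LAMA3 and LAMA5 shares, which is the smallest that 3 against 3 libraries allow, and 0.133 after adjustment over the 8 shares of both classes.

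**Figure D2:**
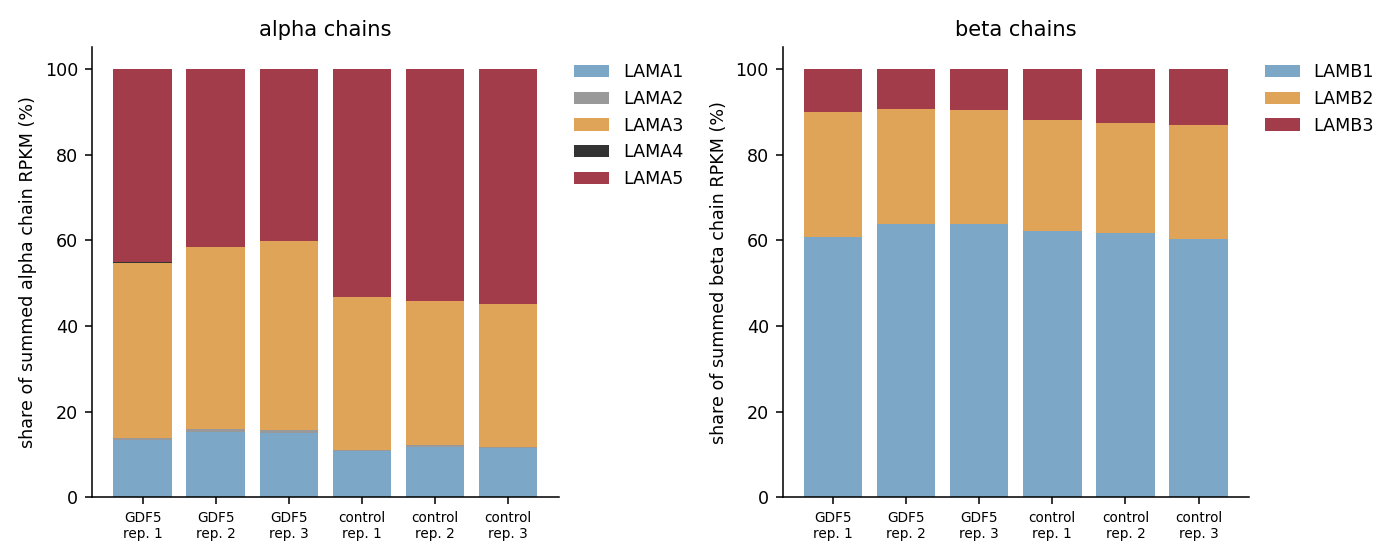
Share of each chain in the summed RPKM of its class, in percent, for each library, with the 3 GDF5 libraries left of the 3 control libraries. LAMA5 covers 40.1% to 45.2% of the alpha bars in GDF5 and 53.3% to 55.0% in control libraries, and LAMB3 covers 9.45% to 10% of the beta bars in GDF5 and 11.9% to 13.1% in control libraries.

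Among the beta chains, LAMB3 fell most. LAMB3 (ENSG00000196878, chromosome 1, 209614870 to 209652466, minus strand) encodes the beta chain found with alpha3 in the laminin of hemidesmosome anchoring, and its loss causes a blistering skin disease. It was at 7.84, 7.16 and 7.15 RPKM in GDF5 libraries, against 11.0, 11.5 and 12.4 RPKM in control libraries. No GDF5 library reached the lowest control library. The means were 7.38 ± 0.398 RPKM in GDF5 and 11.6 ± 0.699 RPKM in control (SD, n = 3 each). On log2(RPKM + 1) the change was -0.59 (standard error 0.053, 95% interval -0.71 to -0.46, limma adjusted p = 5.25e-04). With a pseudocount of 0.1 it was -0.65. The change lay between -0.65 and -0.50 over 14 other settings and stayed called in each. In the authors' deposited table its log2 fold change was -0.59, with an adjusted p of 8.16e-18.

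LAMB1 (ENSG00000091136, chromosome 7, 107923799 to 108003255, minus strand) encodes the beta chain of most laminins in tubules. It was at 47.5, 48.3 and 47.9 RPKM in GDF5 libraries, against 57.5, 56.0 and 57.3 RPKM in control libraries. The 3 GDF5 libraries lay within 1 RPKM of each other and all below control. The log2 change was -0.24 (standard error 0.026, 95% interval -0.30 to -0.18, limma adjusted p = 9.16e-04), between -0.26 and -0.18 over 14 other settings and called in each. The authors' deposited table gave -0.19, with an adjusted p of 2.26e-10. LAMB1 exons share 70 bases with those of DLD, an enzyme gene of the mitochondrial matrix on the other strand with 2776 to 3611 reads per library, and the antisense gene AC005046.1 within LAMB1 had 358 reads on average.

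LAMB2 (ENSG00000172037, chromosome 3, 49121114 to 49133118, minus strand), whose product belongs to the glomerular basement membrane and the neuromuscular junction, was at 22.8, 20.4 and 20 RPKM in GDF5 libraries, against 24.1, 23.1 and 25.1 RPKM in control libraries. GDF5 replicate 1 was less than 1 RPKM under the lowest control library. The log2 change of -0.19 (standard error 0.055) passed the test by little (limma adjusted p = 0.0440). The call ended with median-of-ratios scaling (adjusted p = 0.137), with the trend on GC content removed (0.0671), with totals free of mitochondrial reads (0.0752), with limma-voom (0.0509), without the filter on low genes (0.142), and when GDF5 replicate 2 (0.132), GDF5 replicate 3 (0.132), control replicate 1 (0.106), control replicate 2 (0.0575) or control replicate 3 (0.119) was left out. Without GDF5 replicate 1 the log2 change was -0.25 and called (adjusted p = 0.00838). In the authors' deposited table LAMB2 was not called (adjusted p of 0.0892). The nearby pseudogene LAMB2P1 had 2 to 10 reads per library.

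The promoter windows of LAMB3 and LAMB1 are given in the same form, since both chains fell in every setting tried. The LAMB3 window belongs to the start site nearest the GENCODE 29 gene start, out of 3 start sites listed. LAMB3 is chr1:209652376-209652675 and LAMB1 is chr7:108003112-108003411, both on the minus strand.
LAMB3: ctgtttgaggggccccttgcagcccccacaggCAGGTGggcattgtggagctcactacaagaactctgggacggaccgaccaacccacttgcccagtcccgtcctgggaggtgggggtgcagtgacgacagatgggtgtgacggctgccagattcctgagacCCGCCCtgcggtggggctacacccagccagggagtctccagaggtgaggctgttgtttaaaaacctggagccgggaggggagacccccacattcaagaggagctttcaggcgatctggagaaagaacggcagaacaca
LAMB1: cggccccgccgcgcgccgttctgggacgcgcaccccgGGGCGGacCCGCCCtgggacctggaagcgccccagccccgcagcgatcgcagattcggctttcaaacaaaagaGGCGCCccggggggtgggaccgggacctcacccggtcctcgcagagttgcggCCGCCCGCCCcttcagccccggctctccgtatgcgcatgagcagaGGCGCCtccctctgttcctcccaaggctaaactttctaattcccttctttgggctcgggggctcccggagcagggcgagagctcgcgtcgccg

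In the makeup of the beta class, LAMB3 took 10%, 9.45% and 9.52% of summed beta chain RPKM in GDF5 libraries, against 11.9%, 12.7% and 13.1% in control libraries. The difference was -2.87 points (exact permutation test, two-sided, p = 0.1, adjusted 0.133), the smallest raw p possible here. It was -1.64 points with GENCODE 29 exon lengths, -1.33 points with the longest transcripts and -1.02 points in shares of reads. LAMB1 averaged 62.8 ± 1.73% in GDF5 and 61.4 ± 0.869% in control libraries, with overlap, and LAMB2 averaged 27.6 ± 1.41% in GDF5 and 26.0 ± 0.474% in control libraries (SD, n = 3 each). Relative to its partner LAMA3, LAMB3 stood at 0.410, 0.378 and 0.359 in GDF5 libraries, against 0.524, 0.602 and 0.606 in control libraries. The ratio of LAMB3 to LAMB1 was 0.165, 0.148 and 0.149 in GDF5 libraries, against 0.191, 0.205 and 0.216 in control libraries, and every GDF5 library lay below every control library. Both ratios had p = 0.1 in the exact permutation test, or 0.117 after adjustment over the 7 ratios compared. The ratios were chosen after the values were seen. The size of the LAMB3 to LAMB1 ratio and of the beta shares rests on the LAMB1 length taken up further on.

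LAMC1 (ENSG00000135862, chromosome 1, 183023460 to 183145592, plus strand) encodes the gamma chain of most laminins. It was at 73.7, 78.2 and 76.1 RPKM in GDF5 libraries, against 77.7, 75.8 and 74.7 RPKM in control libraries. The means were 76.0 ± 2.26 RPKM in GDF5 and 76.1 ± 1.55 RPKM in control (SD, n = 3 each). The log2 change had a 95% interval of -0.076 to 0.074 (limma adjusted p = 0.985), which leaves out changes of the size seen in LAMA5, LAMB3 and LAMB1. With median-of-ratios scaling it was 0.062 and not called (adjusted p = 0.213), and the authors' deposited table gave 0.063 with an adjusted p of 0.326. Within libraries, the ratio of LAMB1 to LAMC1 was 0.644, 0.617 and 0.629 in GDF5 libraries, against 0.739, 0.739 and 0.767 in control libraries. The ratio of LAMA5 to LAMC1 was 0.286, 0.238 and 0.237 in GDF5 libraries, against 0.404, 0.407 and 0.453 in control libraries. Both ratios were lower in every GDF5 library, with p = 0.1 in the exact permutation test (adjusted 0.117). Summed by class, the 5 alpha chains stood at 0.769 and the 3 beta chains at 0.824 of their control level in GDF5 cells, while LAMC1 stood at 0.999. The beta sum and the size of the LAMB1 to LAMC1 ratio rest on the LAMB1 length taken up further on.

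The promoter window of LAMC1, chr1:183023170-183023469 on the plus strand, is given as that of the abundant chain that did not pass the test.
LAMC1: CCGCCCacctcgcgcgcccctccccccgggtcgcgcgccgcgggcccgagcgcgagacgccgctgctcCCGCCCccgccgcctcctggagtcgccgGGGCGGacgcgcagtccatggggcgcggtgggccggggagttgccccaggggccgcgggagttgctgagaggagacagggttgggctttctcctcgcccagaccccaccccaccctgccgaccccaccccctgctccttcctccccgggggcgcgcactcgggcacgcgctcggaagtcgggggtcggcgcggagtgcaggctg

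**Figure D3:**
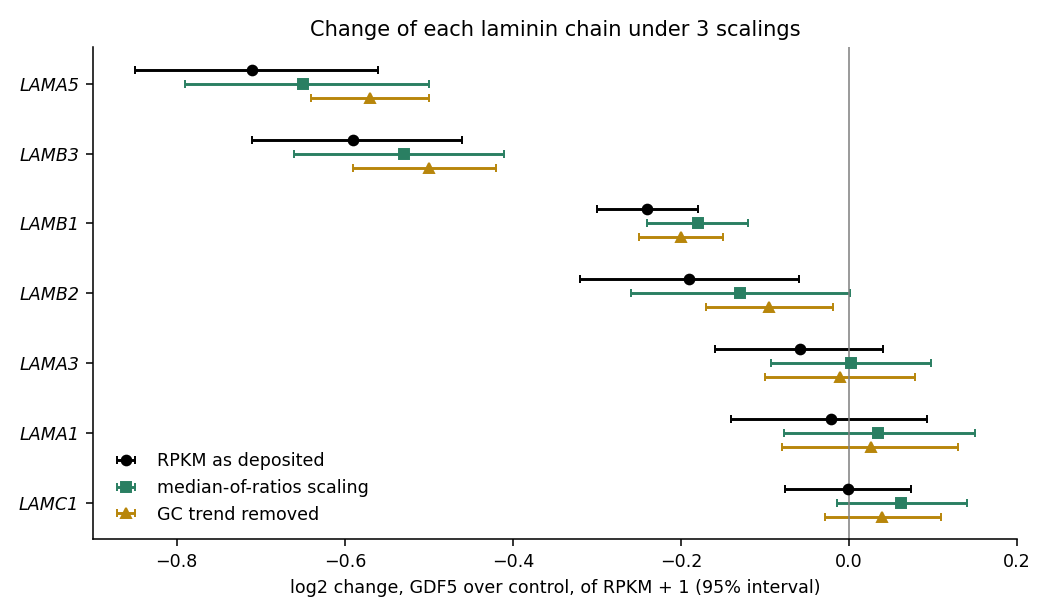
Log2 change of RPKM + 1, GDF5 over control, with its 95% interval, for the 7 tested chains under the RPKM as deposited (black circles), median-of-ratios scaling (green squares) and with the trend on GC content removed (yellow triangles). LAMA5, LAMB3 and LAMB1 lie left of 0 under all 3, the LAMB2 interval reaches 0 under median-of-ratios scaling, and LAMA3, LAMA1 and LAMC1 span 0.

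The chains differ in base composition, and so did the changes over the whole table. The longest GENCODE 29 transcript had a GC content of 66.4% for LAMA5, 60.3% for LAMB2, 58.9% for LAMB3, 50.7% for LAMA3, 50.5% for LAMA1, 49.5% for LAMB1 and 48.7% for LAMC1. Over all tested genes, the median log2 change was -0.10 in the 2488 genes of highest GC content (57.4% or more) and -0.024 in the 2487 of lowest (40.6% or less). GDF5 replicate 1 had the highest value of its group for LAMA5, LAMB2 and LAMB3, and its median deviation from the group mean over those 2488 genes was 0.061 on the log2 scale, against -0.034 and -0.027 in GDF5 replicates 2 and 3. Control replicate 3 was likewise highest of its group for these chains, with a deviation of 0.061, against -0.017 and -0.039 in control replicates 1 and 2. With the GC trend of each library removed, an alternative added after seeing the data, LAMA5 was at -0.57 on the log2 scale (standard error 0.028) and LAMB3 at -0.50 (0.034). Both were called, as was LAMB1 at -0.20 (adjusted p = 8.23e-04), where 26.9% of 12436 genes were called, 14.5% as higher and 12.4% as lower.

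The order of the chains' levels was read per length. In GDF5 cells it ran from LAMC1 (76.0 RPKM) through LAMB1 (47.9), LAMB2 (21.1), LAMA3 (19.3), LAMA5 (19.2), LAMB3 (7.38), LAMA1 (6.56) and LAMA2 (0.292) to LAMA4 (0.00633 RPKM), and only LAMA3 and LAMA5 overlapped as neighbours. In control cells it ran from LAMC1 (76.1 RPKM) through LAMB1 (56.9), LAMA5 (32.0), LAMB2 (24.1), LAMA3 (20.2), LAMB3 (11.6), LAMA1 (6.67) and LAMA2 (0.235) to LAMA4 (0.00519 RPKM), with no overlap between neighbours. LAMA5 thus held the third place in control cells. In GDF5 cells its mean came after those of LAMB2 and LAMA3, though its libraries overlapped with both. LAMC1 lay above 97.1% and LAMB1 above 95.4% of all tested genes in mean RPKM.

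The place of LAMB1 rests on the gene length the authors used. Their RPKM imply an exon length of 18592 bases for LAMB1, 2.28 times the 8140 bases of its GENCODE 29 exons, while for the other 8 chains the ratio was 0.987 to 1.04. With GENCODE 29 exon lengths LAMB1 was at 109 RPKM in GDF5 and 130.0 RPKM in control cells, above LAMC1 at 76.4 RPKM in both groups. With the longest transcript of each gene LAMB1 was at 154 RPKM in GDF5 and 184 RPKM in control cells, and LAMC1 at 81.4 RPKM in both. These values divide the reads behind the authors' RPKM by the other lengths. Any LAMB1 reads from outside the GENCODE 29 exons would still be counted, which would make its values too high. Dividing the same reads by another length leaves the ratio of a chain's RPKM between the groups as it was. Which bases the authors' LAMB1 length covers is not given. Whether reads from bases outside the GENCODE 29 exons altered the LAMB1 change was not tested.

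**Figure D4:**
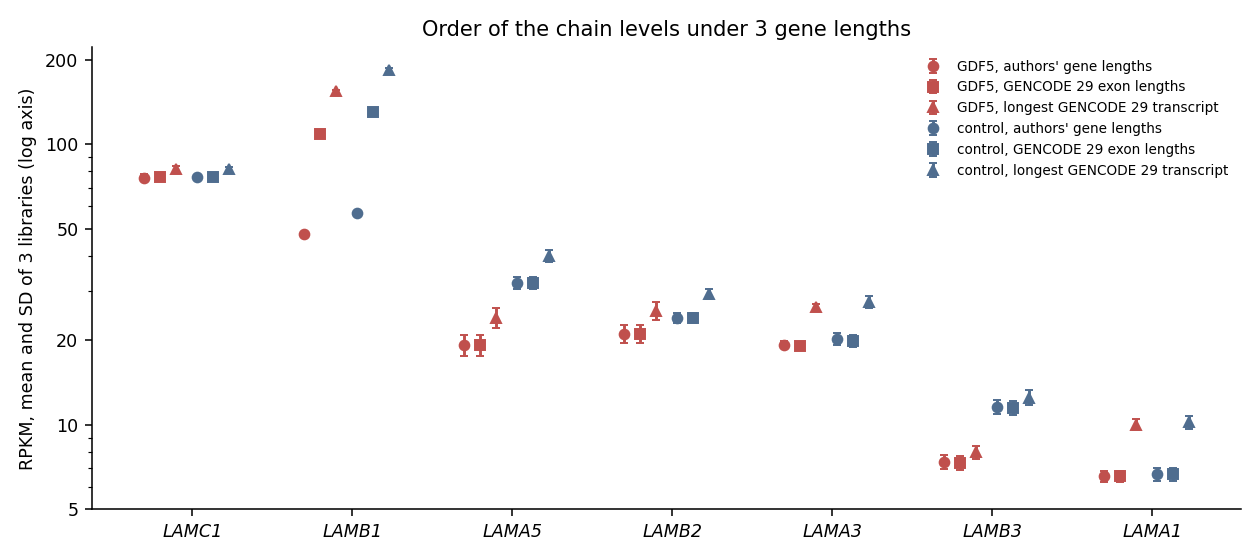
Mean RPKM and SD of 3 libraries on a log axis for the 7 tested chains, with GDF5 (red) left of control (blue), under the authors' gene lengths (circles), GENCODE 29 exon lengths (squares) and the longest GENCODE 29 transcript (triangles). LAMB1 lies below LAMC1 with the authors' lengths and above it with the others, which divide the same reads.

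The promoter windows were searched for the letters of 6 motifs on both strands. RefSeq gave a window for 8 of the 9 chains, all but LAMA1. The GC box GGGCGG was in 6 of 8 windows (LAMA3, LAMA5, LAMB1, LAMB2, LAMB3 and LAMC1) and in 44.9% of 34943 promoters of the same length. LAMA5 held 5 copies, and its window had a GC content of 82.7%, against a median of 58.7% over all promoters. The letters GGCGCC, known as a BMP SMAD motif, were in the windows of LAMA5 and LAMB1 and in 19.2% of all promoters. The E-box CAGGTG, which SNAI repressors bind, was in LAMA5, LAMB3 and LAMA3 and in 20.6% of all. The AP-1 motif TGANTCA was found in LAMA3 alone of the 8, at 2 places, and in 7.72% of all promoters, and the second of these overlaps the E-box. The TEAD motif GGAATG was in LAMA2 (14% of all), and the SMAD palindrome GTCTAGAC (0.203% of all) was in no window. These matches describe letters in a window and were not tested against the changes.

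By the likeness of their values over the 6 libraries, measured as the distance between centred log2(RPKM + 1) values, the genes nearest to LAMA5 among 9915 were SGPP2 (0.0960), ADAMTS15 (0.0966), LRRN4 (0.111), G0S2 (0.127) and RPL7P1 (0.131). SGPP2, a sphingosine-1-phosphate phosphatase, was at 2.18, 1.95 and 1.97 RPKM in GDF5 libraries, against 3.66, 3.76 and 4.20 RPKM in control libraries. ADAMTS15, a secreted protease, was at 4.86, 4.21 and 4.19 RPKM in GDF5 libraries, against 7.11, 7.31 and 7.92 RPKM in control libraries. Both were high in GDF5 replicate 1 within their group, as LAMA5 was, which follows from how they were picked. The distance is not scaled to the size of a gene's change, so it largely follows that size. Only 9 genes were nearer to LAMA5 than LAMB3 (0.169) was, while 877 were nearer than LAMB1 (0.598) and 6321 nearer than LAMC1 (0.899). RPL7P1 is a pseudogene with close copies, so its value is uncertain.

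Genes that bind laminins on the cell surface were lower in part. Of 12 listed receptors 11 were tested, and 6 fell and 0 rose by limma (also 0 higher at an unadjusted p under 0.05, and 2 higher with limma-voom), with a list median of -0.16 (all tested genes -0.050). Over all tested genes 17.5% were called lower and 7.48% higher by limma, and 8.88% lower and 10.8% higher with limma-voom. BCAM, a receptor that binds the alpha5 chain, was at 7.97 ± 1.04 RPKM in GDF5 and 13.3 ± 1.10 RPKM in control cells. Its change was -0.67 in log2(RPKM + 1) (limma adjusted p = 0.00261). SDC1, a heparan sulfate proteoglycan, fell by 0.33, and ITGA3 and ITGA6, alpha subunits of laminin-binding integrins, fell by 0.29 and 0.28 on the same scale, called under each of 14 other settings. With a pseudocount of 0.1 the changes of SDC1, ITGA3 and ITGA6 were -0.34, -0.30 and -0.34, so their order depends on the pseudocount. Their shared partner ITGB1 averaged 94.7 ± 2.01 RPKM in GDF5 and 93.0 ± 2.30 RPKM in control cells (SD, n = 3 each) and was not called (limma adjusted p = 0.572), though limma-voom on recovered reads called it higher (log2 change 0.090, adjusted p = 0.0192), as did the authors' deposited table (adjusted p of 0.0395). DAG1, dystroglycan, averaged 20.2 ± 0.711 RPKM in GDF5 and 20.3 ± 0.609 RPKM in control cells and was not called (limma adjusted p = 0.876). With median-of-ratios scaling 5 receptors were lower and 0 higher, where 9.96% of all tested genes were lower and 12.9% higher.

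Of 6 hemidesmosome genes, which tie the alpha3 and beta3 laminin to keratin filaments, 5 were tested and 3 fell, against 17.5% of all tested genes called lower. ITGB4, the beta subunit of the hemidesmosome integrin, was at 4.44 ± 0.235 RPKM in GDF5 and 5.53 ± 0.0322 RPKM in control cells. Its change was -0.26 in log2(RPKM + 1) (limma adjusted p = 0.00530). ITGB4 and its alpha subunit ITGA6 are counted among the receptors too. PLEC, the keratin linker plectin, fell by 0.29, and that call ended when GDF5 replicate 2 (adjusted p = 0.0707), GDF5 replicate 3 (0.0650), control replicate 1 (0.0591) or control replicate 3 (0.0620) was left out, and without the filter (0.0840). In each of those 4 leave-outs 2 hemidesmosome genes were lower. Over all 12476 tested genes 1760, 1866, 2072 and 2213 were then called in either direction, in the same order. The authors' deposited table did not call PLEC (adjusted p of 0.0720).

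The partners of laminin in the basement membrane were mixed: of 16 listed, 10 were tested, 4 fell and 1 rose, with a list median of -0.058. Over all tested genes 17.5% fell and 7.48% rose, and the median was -0.050. NID1, the nidogen that links laminin to collagen IV, rose to 28.9 ± 0.524 RPKM in GDF5 cells, against 24.8 ± 0.428 RPKM in control cells (SD, n = 3 each). Its change was 0.21 in log2(RPKM + 1) (limma adjusted p = 0.00273). AGRN, the proteoglycan agrin that binds laminin, fell to 66.4 ± 7.0 RPKM in GDF5 cells, against 89.7 ± 5.07 RPKM in control cells. COL18A1, a basement membrane collagen, fell by 0.50 and PXDN, the peroxidase that crosslinks collagen IV, by 0.20 on the log2 scale. The collagen IV gene COL4A1 averaged 123 ± 3.53 RPKM in GDF5 and 119 ± 1.07 RPKM in control cells and was not called (limma adjusted p = 0.226), but was called higher with median-of-ratios scaling (log2 change 0.12, adjusted p = 0.0337), with the GC trend removed (0.0203) and with limma-voom (0.00185). Under median-of-ratios scaling 2 partners were higher and 3 lower, where 12.9% of all tested genes were higher and 9.96% lower. The counts were 3 higher and 4 lower with the GC trend removed (14.5% and 12.4% of all). They were 2 higher and 4 lower with limma-voom (10.8% and 8.88% of all).

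Among 9 tested proteases and inhibitors that act on laminins or on their processing, 4 were lower and 1 higher, with a list median of -0.086, against 17.5% lower, 7.48% higher and a median of -0.050 over all tested genes. Median-of-ratios scaling, removal of the GC trend and limma-voom each gave 3 lower and 2 higher. Over all genes in those fits 9.96%, 12.4% and 8.88% were lower, and 12.9%, 14.5% and 10.8% were higher. MMP7, a secreted metalloprotease of injured tubules, fell to 50.5 ± 3.51 RPKM in GDF5 cells, against 82.0 ± 5.72 RPKM in control cells. Its change was -0.69 in log2(RPKM + 1) (limma adjusted p = 5.80e-04). BMP1, the protease that trims laminin and procollagen chains, fell by 0.31. TIMP1 rose by 0.20 and TIMP2 fell by 0.11, both inhibitors of metalloproteases. The TIMP1 call ended when GDF5 replicate 2 (adjusted p = 0.0552), GDF5 replicate 3 (0.0614), control replicate 1 (0.0540) or control replicate 2 (0.0531) was left out and without the filter (0.0696), and the TIMP2 call ended with median-of-ratios scaling (0.242), with the GC trend removed (0.171), with limma-voom (0.360), with totals free of mitochondrial reads (0.0660) and without GDF5 replicate 2 (0.0838), GDF5 replicate 3 (0.0669), control replicate 1 (0.0681) or control replicate 2 (0.0566). Without GDF5 replicate 2, GDF5 replicate 3 or control replicate 1 the list held 2 lower and 0 higher. Over all 12476 tested genes 1760, 1866 and 2072 were then called in either direction. NTN4, a netrin that binds the gamma1 short arm, fell by 0.32 (limma adjusted p = 5.34e-04) and was the 1 called gene of 2 tested among 7 relatives with a laminin N-terminal domain (25.0% of all tested genes were called). Of 9 tested enzymes that build the laminin-binding glycan of dystroglycan 1 was lower, against 17.5% of all tested genes, the mannosyltransferase POMT1 (-0.15, limma adjusted p = 0.0399). Its call ended with median-of-ratios scaling (0.123), with the GC trend removed (0.129), with limma-voom (0.0629), with totals free of mitochondrial reads (0.0696), without the filter (0.0999) and when any 1 library was left out (0.0708 to 0.135). By limma-voom 2 of these enzymes were called higher and 0 lower, against 10.8% of 19065 genes higher and 8.88% lower.

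**Figure D5:**
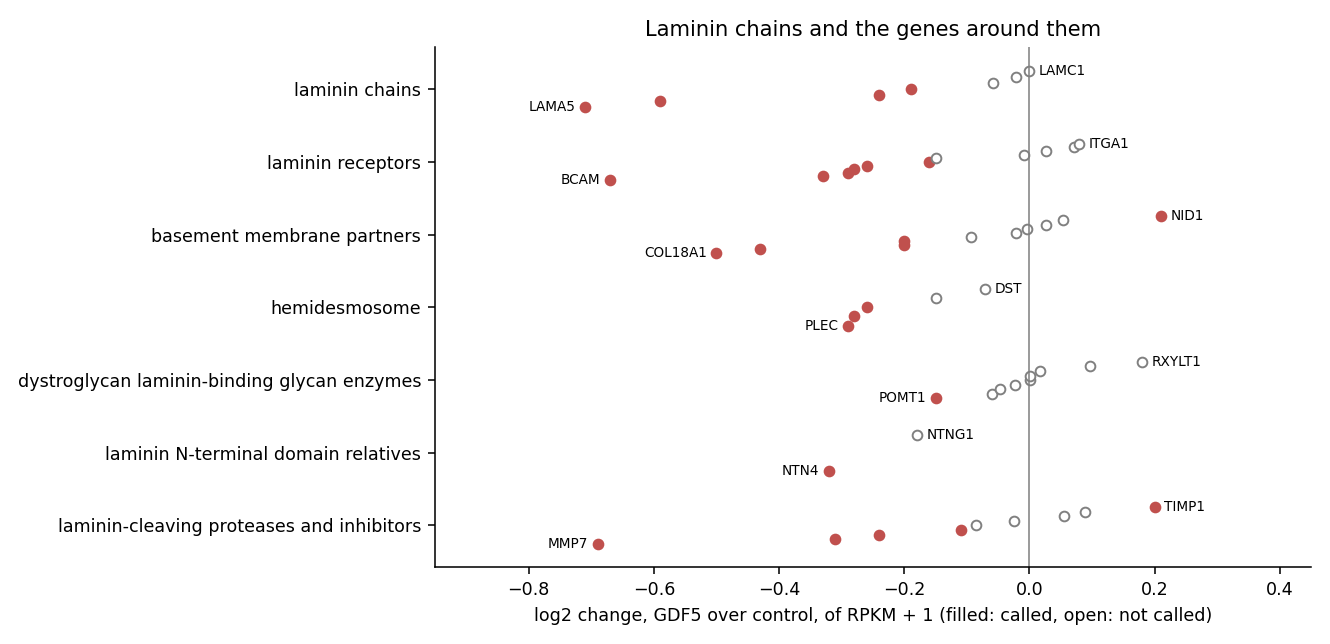
Log2 change of RPKM + 1, GDF5 over control, of each tested gene of 7 lists, with filled points for called genes (limma adjusted p under 0.05) and open points for genes not called. The gene lowest and the gene highest in each list are named, and most filled points lie left of 0, with NID1 and TIMP1 to the right.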

How the data were processed

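RNA of 3 GDF5-treated and 3 control samples of HK-2 cells was sequenced, and the table of the series was deposited in 2 identical copies, of which 1 was read. The authors deposited RPKM per library, group means of size-factor normalised reads (a normalised signal), log2 fold changes and p-values with adjusted p-values, per the file headers. HISAT2, DESeq2 and GRCh38 are named in the submitters' processing notes, with no versions. The counter, its strand setting and the annotation were not given in sources used here. Whole reads were recovered from the RPKM steps: 100% of 64566 values under 20 reads came within 0.1 of a whole number. Gene IDs matched GENCODE 29 for 96.9% of genes, and the implied gene length was within 5% of the GENCODE 29 exon length for 80.2%. Levels depend on that length, and each RPKM on the library total.

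Genes with a mean of at least 1 RPKM over the 6 libraries (12476) were tested on log2(RPKM + 1) with limma 3.58.1 in R 4.3.3, with a mean-variance trend and Benjamini-Hochberg adjustment at 0.05. Fold changes on this scale understate those of low genes. The limma fit was tested on simulated data with 200 changed genes. Those data held no GC trend and no mitochondrial difference between groups, and 3116 genes were called in the real libraries. The simulation therefore does not measure error rates in the real libraries. Shares and ratios were tested with exact permutation tests in scipy 1.17.1. Alternatives were median-of-ratios scaling, a pseudocount of 0.1, no filter, a threshold of 0.01, a replicate block, limma-voom on recovered reads with at least 10 on average, leaving out each library and, added after seeing the data, removal of the GC trend, totals without mitochondrial reads and GENCODE 29 lengths. The count test calls 3750 of 19065 genes with limma-voom. The members and lists were chosen with earlier results of these data known. Named genes were all 9 chains, up to 4 called members per list with the smallest adjusted p, and the 5 genes most like the chain that changed most. Genes in these lists that were not called (ITGB1, DAG1 and COL4A1) were picked after their values were seen. The 95% intervals come from the limma fit and rest on the spread between libraries, and the floor of 3 reads covers counting error only. Some listed genes are not reported here and were left out of the lists.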

Additional observations from a re-analysis of the deposited data

How the results depend on the processing

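LAMA5, LAMB3 and LAMB1 kept their direction and their call under all 14 alternatives (13 other fits and the threshold of 0.01), with adjusted p up to 0.00498, 0.00659 and 0.0111 in that order, and LAMB2 kept its call under 2 of them. Chains called lower numbered 3 or 4 under every alternative. Genes called numbered 3116, against 1812 without the filter, 1285 at the threshold of 0.01 and 1760 to 3099 when 1 library was left out, the lowest without GDF5 replicate 2; the count was 1866 without GDF5 replicate 3 and 2072 without control replicate 1. The cause was not tested. Same-numbered libraries did not deviate together (correlations of -0.0368, 0.0572 and -0.0311). Such correlations cannot show whether the samples were made as pairs. With the replicate block 2167 of 12476 genes and 3 chains were called, and the calls of LAMB2 (adjusted p 0.0672), TIMP2 (0.0700) and POMT1 (0.102) ended. The LAMA5 share (-11.8 points) and LAMB3 share (-2.87 points) then had an exact p of 0.25, the smallest 3 pairs allow. Uncalled chains changed sign: LAMA1 was at 0.026 with the GC trend removed, 0.036 with limma-voom, 0.034 with median-of-ratios scaling, 0.0061 without mitochondrial reads and -0.056 to 0.011 without 1 library. LAMA3 was at 0.0026 with limma-voom and with median-of-ratios scaling. LAMC1 was at 0.039, 0.062, 0.062 and 0.030 under the 4 settings named for LAMA1 and -0.022 to 0.021 without 1 library. DAG1 was at 0.053, 0.054, 0.051 and 0.020 under those settings and -0.036 to 0.0095 without 1 library. The share of LAMA5 differed by -13.2 to -10.7 points and that of LAMB3 by -3.20 to -2.60 points without 1 library. LAMA4, at 0 to 6 reads, lay too low for any comparison.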
